A study of Homo sapiens with 6 samples.

Results

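The tumour suppressor p53 is controlled by a small circle of regulators, several of which are themselves p53 targets, and it drives stress genes that slow the cell cycle, damp survival signals or act in DNA repair. The genes described here are 9 members of that circuit, namely the regulators MDM2, MDM4 and PPM1D and the stress targets PHLDA3, GADD45A, GADD45B, BTG2, ZMAT3 and TP53INP1. Their rows were found by matching the symbol to the gene ID, with no threshold on a measured value, but the set was named with earlier results of these data known. They are 9 of the 63140 gene IDs in the count table. All 9 passed the filter on low counts. The gene of p53 itself is not among them and was not analysed here.

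RNA was sequenced from Y79, an established human retinoblastoma cell line whose genotype the labels give as WT. The 3 control libraries came from cells in complete medium (RPMI 1640 with serum and antibiotics), and the 3 rhArg libraries from cells in the same medium with recombinant human arginase at 2 U/mL for 72 h. rhArg is an enzyme that breaks down arginine, so the comparison asks what arginine deprivation did to gene expression in these cells. It is a single cell line with 1 dose and 1 time, and the labels do not state that replicate libraries are from separate cultures. The p-values therefore cover the spread between these libraries only, and that spread may be technical.

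As background, MDM2 is the ubiquitin ligase that marks p53 for degradation, and its own gene is switched on by p53, which closes a negative feedback loop. MDM4 binds and blocks p53 without being a strong ligase itself. PPM1D encodes WIP1, a phosphatase that reverses the phosphorylation of p53 and of its kinases and so ends the response. Several of the stress targets, such as the GADD45 genes, are also induced by stress pathways other than p53.

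Of the 9 genes, 6 were higher under rhArg, 1 was lower and 2 did not pass the test (quasi-likelihood test of edgeR at an adjusted p under 0.05, n = 3 libraries per group). Across the transcriptome 61.7% of the genes tested passed, 30.7% higher and 30.9% lower, so a passing gene by itself is common in this comparison. The median log2 fold change was 0.75 over the 9 genes and -0.005 over all genes tested. PHLDA3, GADD45A and ZMAT3 rose by more than 1 on the log2 scale. Of all genes tested, 12.4% passed and rose by as much, and 23.4% did so in either direction. The 3 libraries of each group did not overlap for 7 of the 9 genes, against 66.5% of all genes tested.

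**Figure D1:**
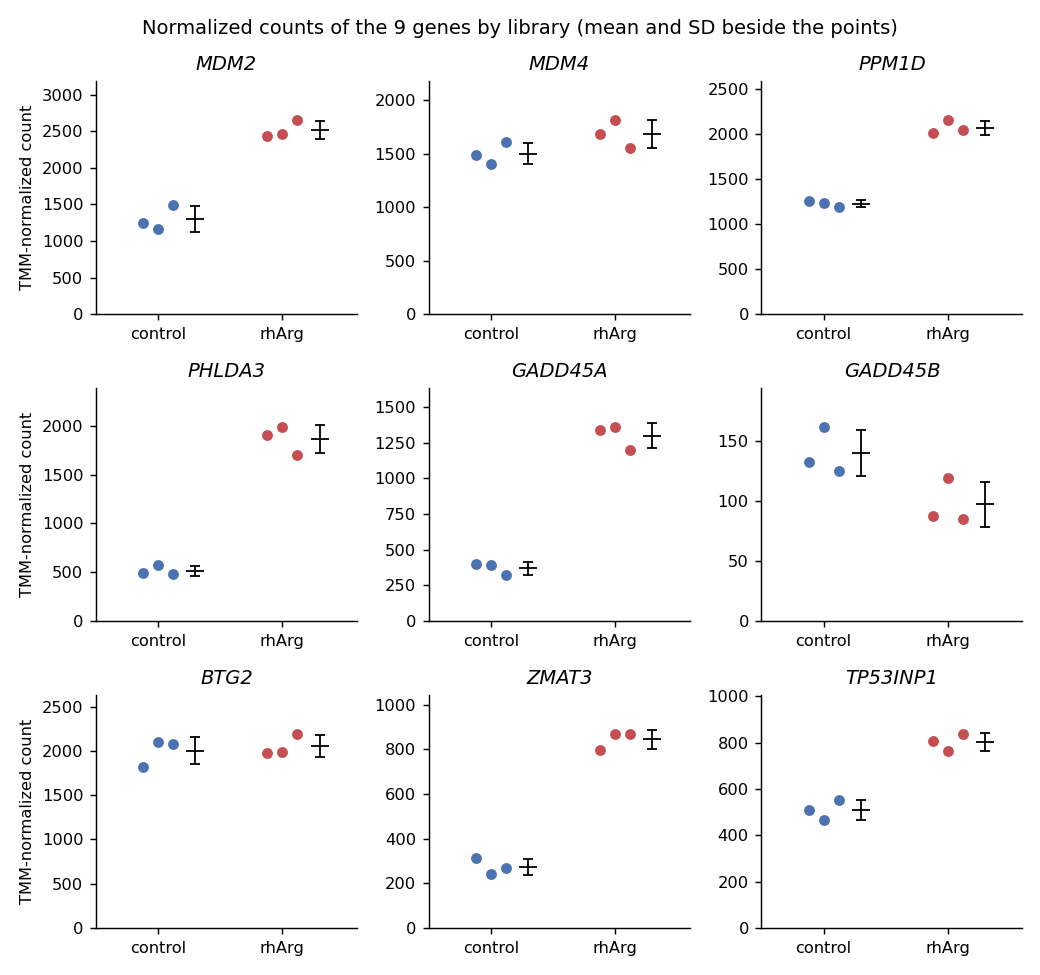
TMM-normalized count (vertical axis, from 0) of each of the 9 genes in the 3 control libraries (blue) and the 3 rhArg libraries (red), with the mean and SD of each group beside the points. The groups are apart in every panel except those of MDM4 and BTG2, and GADD45B is the only gene of the 9 whose rhArg libraries lie below the controls.

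MDM2 (ENSG00000135679, chr12:68808177-68845544, plus strand), the ligase that targets p53, rose 1.93-fold. Its normalized counts were 1248, 1163 and 1496 in the controls and 2438, 2461 and 2655 under rhArg. Every rhArg library lay above every control library, and the spread was wider among the controls. The means were 1303 ± 173 and 2518 ± 119 (SD, n = 3). The log2 fold change was 0.95 (standard error, SE, 0.10, edgeR adjusted p = 1.03e-06). An antisense-strand gene ID without a symbol, ENSG00000257181, takes up 14.7% of the exon bases of MDM2. Since the counting used no strand, reads there could be assigned to neither gene, and that ID had 0 counts in each of the 6 libraries.

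MDM2 has an internal promoter in the first intron that is known to respond to p53, and RefSeq lists start sites both there and at the upstream promoter. RefSeq promoter windows (250 bases before to 50 after a start site, GRCh38.p14) were available for 6 of the 9 genes, and each was scanned for the 20-base p53 consensus, which reads the same on both strands, without a spacer inside it. The windows of the internal promoter held a site that matched the consensus at 18 of 20 positions, and 0.285% of the 35116 windows in the table held one as good or better. That share is over single windows and not over genes, and the internal windows of MDM2 overlap and hold the same site. The site lies at chr12:68808923-68808942, between 94 and 75 bases before the RefSeq start, in an intron by the annotation used for counting. The windows of the upstream promoter matched at 12 positions at best, which 56.2% of all windows reached. The stretch of the internal promoter is shown because it carries the closest match among the 6 genes scanned. It is chr12:68808893-68808972, plus strand, with the site in capitals.
MDM2: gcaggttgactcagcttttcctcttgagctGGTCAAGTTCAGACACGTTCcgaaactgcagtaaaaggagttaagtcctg
The gene-level counts do not separate transcripts of the upstream and internal promoters, so the share of each start site in the rise of MDM2 was not measured.

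MDM4 (ENSG00000198625, chr1:204516379-204558120, plus strand), the paralog of MDM2 that holds p53 inactive, did not pass the test. Normalized counts were 1484, 1407 and 1604 in the controls and 1686, 1814 and 1548 under rhArg. Control replicate 3 lay above rhArg replicate 3, so the groups overlapped. The log2 fold change was 0.17 (SE 0.10, edgeR adjusted p = 0.142) and stayed between 0.11 and 0.22 under 12 alternative settings, none of which made it a call. The best p53 site in its promoter window matched 15 of 20 positions, a score that 11.5% of all windows reached.

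MDM2 and MDM4 proteins act together on p53, so their RNA was also set side by side. Per exon length and within each library, the ratio of MDM2 to MDM4 was 1.12, 1.10 and 1.24 in the controls and 1.92, 1.80 and 2.27 under rhArg. The 14.7% of MDM2 exon bases shared with another ID stayed in its length, so these ratios may be too low. All rhArg ratios lay above all control ratios, with means of 1.15 ± 0.0757 and 2.00 ± 0.244 (SD, n = 3). The exact two-sided permutation p was 0.10, the smallest that 3 against 3 libraries allow, so this design could not reach 0.05 for the ratio.

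PPM1D (ENSG00000170836, chr17:60600193-60666280, plus strand), the phosphatase gene, rose 1.69-fold with the least scatter of the regulators. Its normalized counts were 1263, 1234 and 1190 in the controls and 2011, 2158 and 2048 under rhArg, with no overlap. The means were 1229 ± 36.9 and 2073 ± 76.6 (SD, n = 3), a log2 fold change of 0.75 (SE 0.09, edgeR adjusted p = 2.24e-06). MDM2, the other feedback inhibitor, rose as well, and the ratio of PPM1D to MDM2 per length was 0.844 ± 0.125 in the controls and 0.728 ± 0.0465 under rhArg (SD, n = 3, exact two-sided permutation p = 0.30). That p does not show that the ratio was the same. The shared exon bases of MDM2 stayed in its length here too, so these ratios may be too high.

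The promoter window of PPM1D differed from those of the other 5 genes with a window. It was the only one of them to hold a full cAMP response element, TGACGTCA, a palindrome bound by CREB and ATF factors, which starts 61 bases before the RefSeq start and occurs in 1.85% of all windows. The best p53 site matched 13 of 20 positions, a score that 41.9% of windows reached. The stretch is shown because this element set PPM1D apart. It is chr17:60600098-60600159, plus strand, and the capitals mark, from left to right, ATTGG, which is the CCAAT box on the other strand (in 34.6% of windows), and the cAMP response element.
PPM1D: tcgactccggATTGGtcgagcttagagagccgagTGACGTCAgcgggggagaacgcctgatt
A match is a description of the letters, not evidence of a bound factor.

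PHLDA3 (ENSG00000174307, chr1:201464278-201469237, minus strand), a p53 target whose small PH-domain protein competes with the kinase AKT for membrane lipids, rose 3.62-fold. Normalized counts were 497, 572 and 479 in the controls and 1902, 1990 and 1702 under rhArg. The lowest rhArg library was far above the highest control library. Its means were 516 ± 49.3 and 1864 ± 148 (SD, n = 3), with a log2 fold change of 1.85 (SE 0.11, edgeR adjusted p = 7.54e-10) that exceeded that of 95.6% of the genes tested. The ID ENSG00000224818, which covers 18.4% of its exon bases, had 0 counts in each library.

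PHLDA3 had the highest log2 fold change of the 9 genes by a margin within the SE, and without control replicate 1 it had 1.82 against 1.85 for GADD45A. The profile of PHLDA3 over the 6 libraries was compared with those of 10190 well-expressed genes, and IDs without a symbol were then left out. The nearest of the rest was SLC3A2, which encodes the heavy chain of amino acid transporters (Pearson r of log2 CPM 0.9996). ZNF622 (0.9995) and KNDC1 (0.9991) came next. These correlations rest on 6 libraries in separate groups and are given as a description. The log2 fold change of SLC3A2 was 2.21 (SE 0.11), that of ZNF622 was 0.99 (SE 0.12) and that of KNDC1 was 1.51 (SE 0.11).

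GADD45A (ENSG00000116717, chr1:67685201-67688334, plus strand) encodes a small stress protein that binds PCNA and the p38-activating kinase MTK1 and is linked to G2/M arrest. Its normalized counts were 398, 395 and 320 in the controls and 1339, 1363 and 1201 under rhArg. The groups were widely apart, with means of 371 ± 44.5 and 1301 ± 87.4 (SD, n = 3). This was a 3.51-fold rise and a log2 fold change of 1.81 (SE 0.11, edgeR adjusted p = 1.71e-09).

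GADD45B (ENSG00000099860, chr19:2476122-2478259, plus strand), its paralog, moved the other way. Normalized counts were 133, 162 and 125 in the controls and 87.8, 119 and 84.8 under rhArg. The highest rhArg library and the lowest control library were close, 119 against 125, without overlapping. The means were 140 ± 19.1 and 97.1 ± 18.8 (SD, n = 3), 1.44-fold lower under rhArg, with a log2 fold change of -0.53 (SE 0.18, edgeR adjusted p = 0.0178). This call depended on single libraries. It was lost without control replicate 2 (log2 fold change -0.43, adjusted p = 0.0580), without rhArg replicate 1 (-0.46, adjusted p = 0.0721) and without rhArg replicate 3 (-0.44, adjusted p = 0.0775), while the direction held in every setting.

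GADD45B, which is known as an immediate early gene in many cells, was the only one of the 6 genes with a promoter window to hold a TATAAA box, which starts 31 bases before the RefSeq start and occurs in 11.5% of all windows. It also held the E box CACGTG 168 bases before the start, found in 7.26% of windows. The best p53 site in this window matched 12 of 20 positions, a score that 56.2% of windows reached. The stretch with the TATA box is shown to set it beside that of PPM1D, the window with the cAMP response element. It is chr19:2476035-2476117, plus strand, with both CCAAT boxes and the TATA box in capitals.
GADD45B: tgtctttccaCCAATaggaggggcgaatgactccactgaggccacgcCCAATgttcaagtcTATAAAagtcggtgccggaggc

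GADD45G is the remaining member of the family, and GADD45A took its place as the most abundant GADD45 RNA per length under rhArg. GADD45G had 388 ± 85.9 normalized counts in the controls and 148 ± 14.6 under rhArg (SD, n = 3), a log2 fold change of -1.39 (SE 0.16, edgeR adjusted p = 1.89e-06). Per exon length, GADD45A made up 36.7%, 32.1% and 36.7% of the family total in the controls and 81.1%, 80.6% and 81.7% under rhArg. GADD45G took the larger share in every control library, 52.9% ± 2.86 on average, and 13.4% ± 0.577 under rhArg (SD, n = 3). The share of GADD45B was 11.9% ± 0.954 and 5.43% ± 0.796 (SD, n = 3). The summed level of the family was 41.9 ± 7.09 RPKM (TMM-scaled counts divided by exon length and library size) in the controls and 63.2 ± 4.65 under rhArg (SD, n = 3). For each of these 4 quantities the groups did not overlap and the exact two-sided permutation p was 0.10, the smallest possible.

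**Figure D2:**
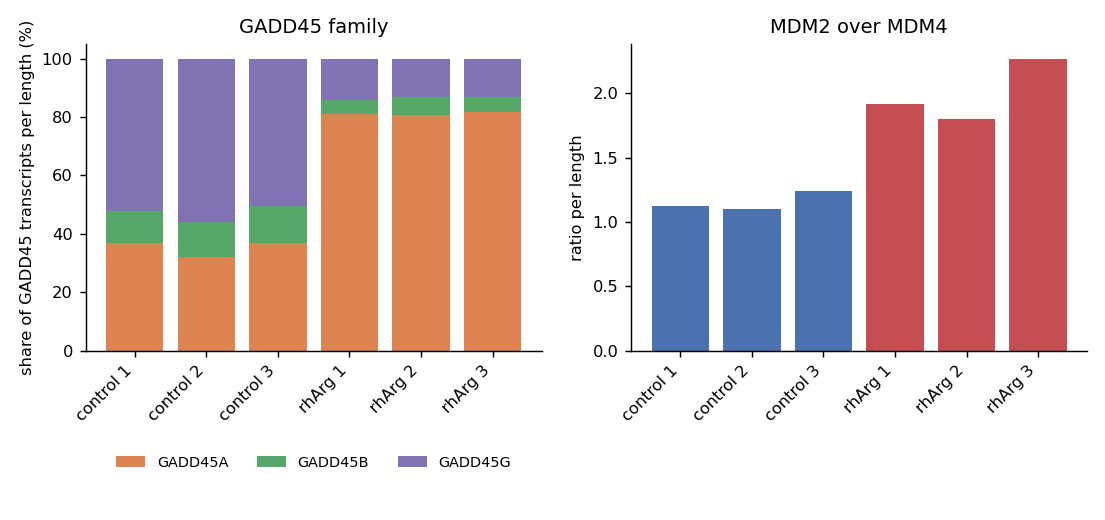
Left, share of the summed GADD45 level per exon length (%) taken by GADD45A, GADD45B and GADD45G in each library; right, ratio of MDM2 to MDM4 per exon length in each library. GADD45A makes up 32.1% to 36.7% of the family in the controls and 80.6% to 81.7% under rhArg, and the MDM2 to MDM4 ratio is 1.10 to 1.24 in the controls and 1.80 to 2.27 under rhArg.

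BTG2 (ENSG00000159388, chr1:203305491-203309602, plus strand), an antiproliferative protein that recruits the deadenylase complex to mRNAs, showed no change that the test could call. Normalized counts were 1825, 2100 and 2081 in the controls and 1975, 1992 and 2198 under rhArg. The groups overlapped, since controls 2 and 3 lay above rhArg replicates 1 and 2. Its log2 fold change was 0.04 (SE 0.09, edgeR adjusted p = 0.747) and turned slightly negative without control replicate 1 (-0.04) and without rhArg replicate 3 (-0.02). The best p53 site in its promoter window matched 11 of 20 positions, the lowest best score of the 6 genes with a window. That score was reached by 65.2% of all windows, and sites outside the window or with a spacer were not scanned.

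ZMAT3 (ENSG00000172667, chr3:178960121-179072215, minus strand), a p53-induced zinc finger protein that binds RNA and regulates splicing, rose 3.08-fold. It had 312, 242 and 267 normalized counts in the controls and 795, 871 and 867 under rhArg. No library of either group came near the other group. The means were 274 ± 35.2 and 844 ± 42.9 (SD, n = 3), a log2 fold change of 1.62 (SE 0.11, edgeR adjusted p = 7.15e-09). The better of its RefSeq windows held a p53 site with 16 of 20 positions matched, while its other window held no site with an intact core. A score of 16 was reached by 4.05% of windows, a share over single windows and not over genes. The site is shown because it was the closest match after that of MDM2 among the 6 genes scanned. It lies at chr3:179071873-179071892, minus strand, 83 to 64 bases before the RefSeq start and inside an annotated exon of the gene, and all its letters are in capitals.
ZMAT3: GGGCCTGCTCCGCCAAGCAC

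**Figure D3:**
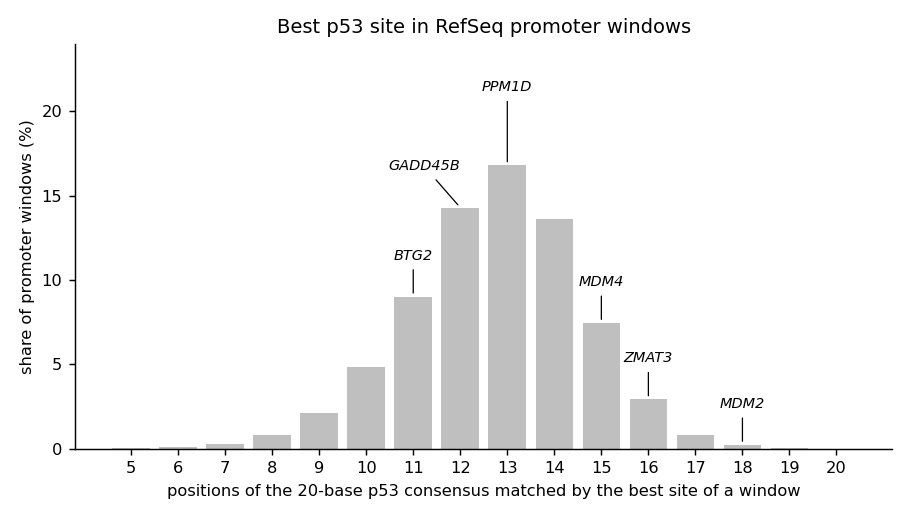
Share of the 35116 RefSeq promoter windows (%) by the number of positions of the 20-base p53 consensus that their best site matches; the 26.6% of windows with no intact core are not drawn, and lines mark the best window of each of the 6 genes. MDM2 at 18 and ZMAT3 at 16 lie in the upper tail, and PPM1D at 13 lies at the most frequent score.

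TP53INP1 (ENSG00000164938, chr8:94925972-94949378, minus strand), a stress protein that acts in autophagy and cell death, rose 1.58-fold. Its normalized counts were 509, 464 and 552 in the controls and 808, 762 and 839 under rhArg, so the groups were apart. The means were 508 ± 43.6 and 803 ± 38.4 (SD, n = 3), a log2 fold change of 0.66 (SE 0.10, edgeR adjusted p = 3.73e-05). It shares 3.99% of its exon bases with NDUFAF6. Its paralog TP53INP2, which also acts in autophagosome formation, rose more, with a log2 fold change of 1.78 (SE 0.11, edgeR adjusted p = 2.84e-09). The ratio of TP53INP2 to TP53INP1 per exon length was 2.84 ± 0.390 in the controls and 6.14 ± 0.346 under rhArg (SD, n = 3), without overlap (exact two-sided permutation p = 0.10, the smallest possible). The promoters of PHLDA3, GADD45A and TP53INP1 were not analysed here.

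Levels of the 9 genes can be compared with each other only per exon length. In this unit, RPKM, BTG2 was the most abundant in the controls (55.1 ± 4.22, SD, n = 3) and ZMAT3 the least (1.84 ± 0.237). GADD45A (14.6 ± 1.75), PHLDA3 (12.1 ± 1.15), MDM2 (11.9 ± 1.58), MDM4 (10.3 ± 0.684) and PPM1D (9.91 ± 0.297) followed BTG2. No neighbours within that run of 5 genes differed beyond their spread, that is, by more than the sum of their SDs. The ends of the run did, and every GADD45A control (12.6 to 15.7) lay above every PPM1D control (9.60 to 10.2). TP53INP1 (6.83 ± 0.587) and GADD45B (4.97 ± 0.679) lay below them. The lengths kept the exon bases shared with other IDs, 18.4% for PHLDA3 and 14.7% for MDM2. Reads there could be assigned to neither gene, so the levels of PHLDA3 and MDM2 may be understated.

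Under rhArg the order changed. At the top, BTG2 (56.5 ± 3.43) and GADD45A (51.3 ± 3.44) no longer differed by more than the sum of their SDs. Even so, every BTG2 library under rhArg (54.3 to 60.5) lay above every GADD45A library (47.3 to 53.7). PHLDA3 (43.6 ± 3.45), MDM2 (23.0 ± 1.09) and PPM1D (16.7 ± 0.617) followed. The shared exon bases of PHLDA3 and MDM2 stayed in the length, so their places in the order may be too low. MDM4 (11.6 ± 0.916) and TP53INP1 (10.8 ± 0.517) lay within each other's spread. ZMAT3 (5.67 ± 0.288) was above GADD45B (3.45 ± 0.667), the reverse of their order in the controls.

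**Figure D4:**
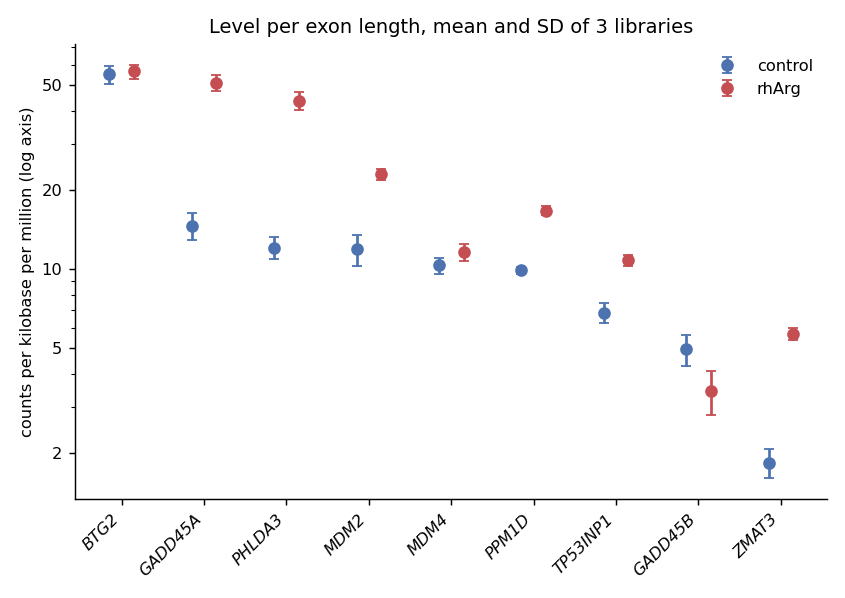
Level per exon length of each gene (RPKM on a log axis), mean and SD of 3 libraries, for controls (blue) and rhArg (red), ordered by the control level. GADD45A and PHLDA3 rise from 14.6 and 12.1 in the controls to 51.3 and 43.6 under rhArg, while BTG2 is at 55.1 and 56.5.

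More of the other p53 targets rose than fell. Of a list of 62 further targets, 51 had enough counts to be tested, 36 of them were higher, 7 lower and 8 did not pass, with a median log2 fold change of 0.66. In shares, 70.6% were higher and 13.7% lower, against 30.7% and 30.9% of all genes tested, and the counts by role that follow are to be read against the same background. Of the list, 7 genes are also known targets of ATF4 or CHOP, the transcription factors of the amino acid response (ATF3, BBC3, DDIT4, GDF15, PMAIP1, SESN2 and TNFRSF10B). Without them, an alternative added after the data were seen, 29 of 44 were higher and 7 lower, with a median of 0.47. The 7 were picked by hand, so the remaining 44 may hold further targets of ATF4 or CHOP. What part each pathway has in these changes was not tested.

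Arrest targets were led by CDKN1A, the CDK inhibitor p21, with normalized counts of 1467, 1538 and 1441 in the controls and 8634, 8663 and 9111 under rhArg, a 5.94-fold rise. Its log2 fold change was 2.57 (SE 0.09, edgeR adjusted p = 6.95e-12), above that of each of the 9 genes. The kinase gene PLK3 also rose (1.18, SE 0.12), as did SFN, the 14-3-3 sigma gene, from few counts (1.53, SE 0.45). SFN lost its call without control replicate 3 (1.13, edgeR adjusted p = 0.0525) and without rhArg replicate 2 (1.13, adjusted p = 0.0628). RPRM, which encodes the G2 arrest protein reprimo, fell (-2.28, SE 0.12), and so did the cyclin G2 gene CCNG2 (-0.69, SE 0.14). Of the 9 arrest genes, 6 were higher and 2 lower.

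Death targets were higher for 9 and lower for 3 of 13 tested. EDA2R, a death receptor of the TNF family, rose most among those named (3.23, SE 0.20), followed by the BH3-only genes BBC3 (1.58, SE 0.12) and PMAIP1 (1.43, SE 0.11). SIVA1 (-0.92, SE 0.12), TRIAP1, an apoptosis inhibitor (-0.58, SE 0.13), and the nuclease gene AEN (-0.25, SE 0.09) fell. The call of AEN was lost without any 1 of the rhArg libraries (edgeR adjusted p from 0.0567 to 0.0834). BAX, the pore-forming effector, was the 1 tested death gene that did not pass and is named after its value was seen (-0.08, SE 0.09, edgeR adjusted p = 0.482).

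Repair targets were higher for 6 of 8 genes, the named ones being the translesion polymerase genes POLH (1.01, SE 0.09) and REV3L (0.81, SE 0.11) and the UV damage sensor gene DDB2 (0.57, SE 0.09), while the ribosomal protein gene RPS27L fell (-0.49, SE 0.12). Metabolic targets were higher for 8 of 13 genes. The mTORC1 inhibitor genes DDIT4 (2.97, SE 0.17) and SESN2 (1.85, SE 0.11) and SPATA18, which acts in mitochondrial quality control (1.94, SE 0.15), rose, and the metalloreductase gene STEAP3 fell (-1.55, SE 0.14). Secreted and signalling targets were higher for 7 of 8 genes, among them the stress cytokine gene GDF15 (4.59, SE 0.16), the transcription factor gene ATF3 (4.10, SE 0.15) and CYFIP2 (1.13, SE 0.11). These values are log2 fold changes from edgeR.

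Among other p53 regulators, more fell than rose. Of 37 listed, 35 were tested, 7 were higher, 15 lower and 13 did not pass, with a median log2 fold change of -0.20. The share that passed, 62.9%, was close to the 61.7% of all genes tested, with 42.9% lower against 30.9%, and a share higher (7 of 35) under the 30.7% of all genes. Kinases that act on p53 were lower for 5 of 9 genes and higher for 1. The checkpoint kinase genes ATR (-1.15, SE 0.16) and CHEK2 (-1.19, SE 0.12) and the mitotic kinase gene AURKA (-1.72, SE 0.10) fell, and HIPK2, a p53 serine kinase, rose (0.79, SE 0.09).

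Of the regulators in the ubiquitin system, TRIM24 (0.75, SE 0.09), a p53 ligase, TRIM28 (0.64, SE 0.10), a partner of MDM2, and the deubiquitinase gene OTUD5 (0.47, SE 0.09) rose. Of the 9 tested, 5 did not pass and 44.4% passed, against 61.7% of all genes tested. The deubiquitinase gene USP10 was the 1 lower call (-0.21, SE 0.09, edgeR adjusted p = 0.0478), and that call was lost under 9 of 12 alternatives, with adjusted p from 0.0158 to 0.175 over them. It was lost without control replicate 1 (0.0777) and without rhArg replicate 1 (0.112), 2 (0.175) or 3 (0.0956).

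Chromatin regulators were higher for 3 and lower for 6 of 12 genes. The p53 acetyltransferase genes CREBBP (1.35, SE 0.10) and EP300 (0.46, SE 0.10) rose, as did the lysine methyltransferase gene KMT5A (0.91, SE 0.09). The demethylase gene KDM1A (-0.82, SE 0.09) and the methyltransferase gene SMYD2 (-0.76, SE 0.11) fell. Of 5 nucleolar and ribosomal regulators, which can bind MDM2 under ribosome stress, 3 fell and 0 rose. Those that fell were NCL (-1.47, SE 0.09), NPM1 (-0.98, SE 0.11) and RPL11 (-0.61, SE 0.10). This is 60.0% lower, against 30.9% of all genes tested, but a share over 5 genes is imprecise.

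Paralogs of the 9 genes were split, with 5 higher (41.7%), 4 lower (33.3%) and 3 not passed among 12 tested and a median of 0.24. Of all genes tested, 30.7% were higher and 30.9% lower, so calls in both directions are common in this comparison. Besides TP53INP2 and GADD45G, BTG1, a relative of BTG2, rose (0.63, SE 0.11), so the BTG family was not uniform, and ZMAT1 rose with ZMAT3 (0.59, SE 0.16) while ZMAT4 fell (-1.89, SE 0.24). PHLDA1, a relative of PHLDA3, fell (-1.31, SE 0.17). Within the PHLDA, ZMAT and GADD45 families, PHLDA3, ZMAT3 and GADD45A rose while at least 1 relative of each fell.

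**Figure D5:**
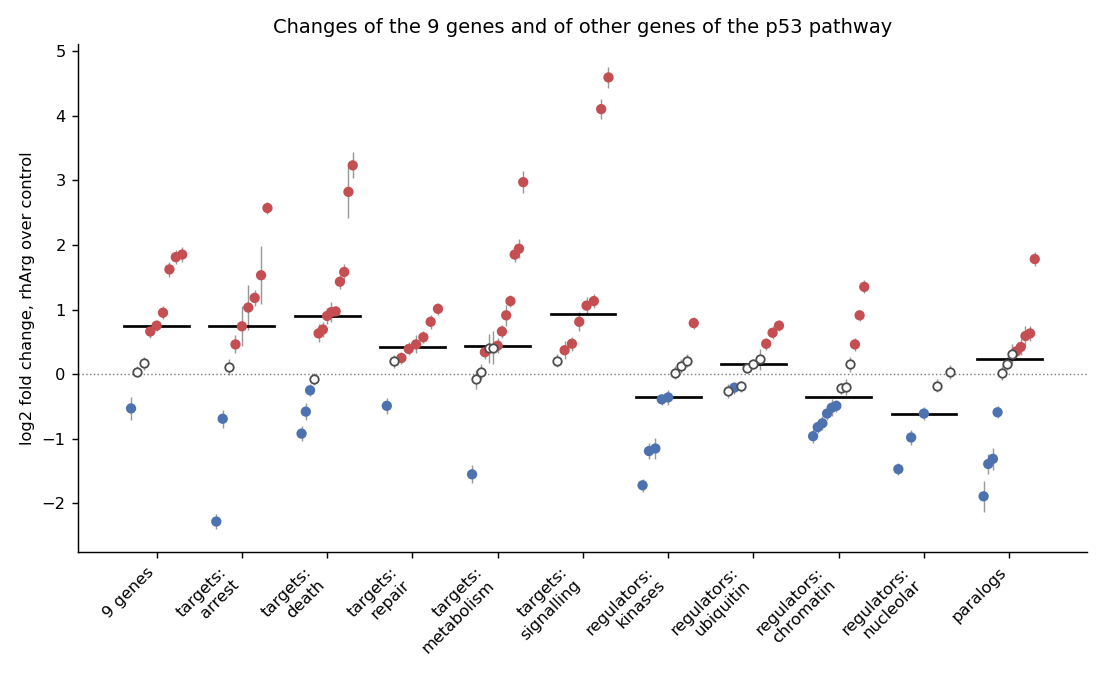
Log2 fold change of rhArg over control (vertical axis, with SE bars) for the 9 genes, the other p53 targets by role, the other p53 regulators by class and the paralogs. Filled points passed the test (red higher, blue lower), open points did not, and black lines are medians, which lie above 0 for the 9 genes and each class of targets and below 0 for the kinase, chromatin and nucleolar regulators.

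Library totals lay between 12580622 and 13747351 counts, a narrow range in depth. All 8 photoreceptor-lineage markers were expressed, with a summed normalized count of 30158 to 32907 in the controls and 25772 to 26663 under rhArg. Of 10 markers of other cells, 3 reached a mean normalized count of 10 in either group, RLBP1 was at 0 throughout, and their sum was 334 to 422 in the controls and 128 to 151 under rhArg, most of it from POU4F2. Most of the lineage sum came from OTX2, with 23240 normalized counts in the controls and 17373 under rhArg, while CRX moved the other way, from 4533 to 6962 (log2 fold change 0.62, edgeR adjusted p = 2.27e-05). Gene by gene, 5 of the 8 lineage markers fell by the edgeR test and CRX alone rose, while RCVRN and THRB were not called. The median log2 fold change of the 8 was -0.67. NRL (-1.44, SE 0.11), PDE6H (-1.41, SE 0.23) and RXRG (-1.18, SE 0.13) fell further than OTX2 (-0.42, SE 0.09), which dominates the sum. Both marker sums were lower under rhArg, and their part in the changes of the 9 genes was not tested. In such bulk samples, fewer cells of a kind and less RNA per cell cannot be told apart.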

How the data were processed

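RNA from 6 Y79 libraries (3 control, 3 rhArg) was sequenced. The authors cleaned the reads (SOAPnuke), mapped them to hg38 (HISAT2) and used featureCounts 2.0.1 with Ensembl release 112 of GRCh38 and no strand option, and they deposited the raw counts per gene. For the cleaning and mapping tools the version number is not given in the sources used here. Without strand, reads in overlapping genes cannot be assigned, so shared exon bases are given for those of the 9 genes that have any. For the other genes named they are left out above, although some are large (16.0% for BTG1 and 11.0% for STEAP3).

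Of 63140 gene IDs, 62541 had a symbol. edgeR 4.0.16 in R 4.3.3 was used to test the counts (filterByExpr, TMM, quasi-likelihood test, condition only) over 15221 genes with Benjamini-Hochberg adjustment. Normalized counts are counts scaled to the mean effective library size, and RPKM further divides by exon length. Standard errors are the log2 fold change divided by the square root of F. Library totals of 12580622 to 13747351 counts and 3 libraries per group limit precision (common dispersion 0.0110). Replicates differed by more than sampling noise (chi-square over degrees of freedom 3.62 to 16.2) and each counted once. In simulated counts with 50 changed genes of each size, edgeR called 40% of those changed by 0.5 on the log2 scale. It called 70% of those changed by 1, 96% of those changed by 2 and 0.115% of unchanged genes. Small changes can therefore be missed. Far fewer genes were changed in the simulation than passed in these data.

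Alternatives were DESeq2 1.42.0, RLE, upper-quartile and library-total scaling, no filter on low counts, each library left out, the replicate number as a block, a fold threshold and exon length less 200 bases. Promoter windows were from RefSeq. Besides the 9 genes and CDKN1A, the text names up to 3 higher and 3 lower genes per list with the smallest adjusted p. By the same rule it names the 3 profiles nearest to that of the gene with the largest change. These were taken from genes with a symbol and a mean normalized count of at least 100. A gene that meets this rule is not reported here. The genes, lists and tests were chosen with earlier results of these data known, so the counts are descriptions.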

Additional observations from a re-analysis of the deposited data

How the results depend on the processing

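Every one of the 12 refits (DESeq2, 3 other scalings, no filter on low counts, the replicate block and 6 fits that each left out 1 library) kept 6 of the 9 genes higher. The number lower was 0 to 1 over the fits that left out 1 library, being 0 without control replicate 2, rhArg replicate 1 or rhArg replicate 3, each time by the loss of GADD45B. The median of the 9 genes lay between 0.72 and 0.78. BTG2 lay between -0.04 and 0.06 over the fits that left out 1 library, changed sign without control replicate 1 (-0.04) and without rhArg replicate 3 (-0.02) and was never called.

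An absolute log2 fold change over 1 left 1881 genes higher and 1677 lower of all tested, 3 and 0 of the 9 genes, 17 and 2 of the target list, 1 and 4 of the regulator list and 1 and 3 of the paralog list, since this threshold removes smaller changes by construction. Without control replicate 2 the paralog median was 0.14 against 0.24, and DESeq2 gave 0.16. The target median, 0.66, was 0.75 with DESeq2, 0.73 with no filter on low counts and 0.61 without rhArg replicate 1. The regulator median, -0.20, lay between -0.25 and -0.18 in the settings that moved it. All these medians kept their sign. With 200 bases taken off each exon length, the level under rhArg was 57.2 for GADD45A, and BTG2 had 59.4 in the controls and 61.0 under rhArg.

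The labels number replicates 1 to 3 in both groups but state no pairing, and same-numbered libraries did not deviate together (correlations -0.0785, 0.0589 and 0.00403). With the replicate number as a block, 4694 genes were higher and 4691 lower of all tested, 6 and 1 of the 9 genes, 34 and 7 of the targets, 7 and 14 of the regulators and 5 and 4 of the paralogs. Of the results named, the block changed the call of USP10 alone.

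Among results for single genes and list medians, 761 comparisons with an alternative kept direction and call, 17 lost the call, 12 medians moved and 2 changed sign. GADD45B had the fewest counts of the 9 genes, and 3 libraries per group cannot take an exact permutation test of a ratio below 0.10.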
